A study of Mus musculus with 6 samples.

Results

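Pou5f1, Nanog, Esrrb, Utf1, Dppa3, Dppa4, Tfap2c, Prdm1 and Prdm14 are 9 mouse genes associated with gonocytes and with pluripotency. They were chosen by symbol from the 57170 gene identifiers of the count table, and each symbol matched 1 identifier. The libraries are poly(A) RNA of mouse testes taken at postnatal day 5. The sKO group (4 libraries, sKO-1 to sKO-4) carried a conditional knockout of Mdm2, the ubiquitin ligase that restrains p53, in pre-meiotic germ cells. The WT group (2 libraries, WT-1 and WT-2) was wild type for Mdm2. The labels name neither a Cre driver nor a strain, nor whether a library is 1 animal or a pool. The labels do not say that the libraries came from separate animals, so the p-values measure the spread between libraries, which may be technical. The comparison asks which of these genes are expressed in the testis at this age and how their levels in sKO testes stand against those in WT testes.

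Germ cells arise in the embryo as primordial germ cells, in which Prdm1, Prdm14 and Tfap2c set up the germ line. These cells share with the early embryo a network of pluripotency factors that includes Pou5f1 and Nanog. In the male they enter mitotic arrest as gonocytes, also called prospermatogonia. Around birth they resume division and become spermatogonia, and the pluripotency factors are lowered over this period. The germ cells lie inside tubules built by the far more numerous Sertoli cells, so germ cell transcripts make up a small share of testis RNA.

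Library totals were 17.99 to 18.39 M (mega) counts. Values are CPM, counts scaled to a common library total, over library sizes adjusted by TMM, an edgeR method that equalises the bulk of genes. Mdm2 had 37.6, 47.3, 41.8 and 45.1 CPM in sKO-1 to sKO-4, against 67.2 and 75.9 CPM in WT-1 and WT-2 (log2 fold change −0.74, SE 0.11, edgeR adjusted p = 0.0241). The counts cover the whole gene in all cells of the testis, and may include exons that the knockout leaves in place. How much of the Mdm2 level comes from cells outside the knockout was not tested. The libraries also fell apart in a way the genotype does not explain. The first principal component, 38.1% of the variance, put sKO-1, sKO-2 and WT-1 on its negative side (subset 1) and sKO-3, sKO-4 and WT-2 on its positive side (subset 2). The labels name no batch, so results are also given within each subset, where the single WT library is taken to vary as sKO does. The subsets were drawn from these same counts, and each holds the sKO libraries most alike. The chi-square per gene was 6.65 between sKO-1 and sKO-2 and 3.92 between sKO-3 and sKO-4. Between sKO libraries of different subsets it was 19.3 to 23.7. No chi-square was taken between a WT and an sKO library. The small p-values within a subset or with subset as a term follow in part from how the subsets were drawn and are not independent evidence. Summed over 14 genes expressed across germ cells, such as Dazl and Ddx4, the level was 183, 125, 115 and 194 CPM in sKO-1 to sKO-4, against 925 and 639 CPM in WT-1 and WT-2. In testis RNA, fewer germ cells and less RNA per germ cell cannot be told apart, here and in each result that follows.

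Of the 9 genes, 4 were expressed in WT testes at day 5 by a threshold of 1 CPM in both WT libraries: Pou5f1, Dppa4, Prdm1 and Tfap2c. Tfap2c, at 1.01 CPM in WT-2, was on that threshold and fell short of it without TMM scaling, which left 3. Esrrb and Utf1 were under 1 CPM but above the floor of 3 counts in both WT libraries. Nanog, Prdm14 and Dppa3 were at or under 3 counts in at least 1 WT library. In sKO testes, Dppa4 and Prdm1 were at 1 CPM or more in all 4 libraries. Pou5f1 was above 1 CPM in 3 of the 4 and at 0.910 CPM in sKO-2. Nanog was under 1 CPM in all 4 and above 3 counts, and Tfap2c, Esrrb, Utf1, Prdm14 and Dppa3 were at or under 3 counts in at least 1 sKO library. A floor of 3 counts equals 0.159 to 0.173 CPM in an sKO library and 0.156 to 0.169 CPM in a WT library, and it covers counting error only.

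Levels of different genes can be set side by side only per length, here as CPM per kilobase of the longest annotated transcript. On that scale Pou5f1 averaged 1.47 in sKO and 5.60 in WT, and Dppa4 averaged 1.41 in sKO and 4.77 in WT. Prdm1 followed with 0.771 in sKO and 0.769 in WT. Tfap2c averaged 0.0469 in sKO and 0.422 in WT, Utf1 0.153 in sKO and 0.397 in WT, and Esrrb 0.0570 in sKO and 0.213 in WT. In WT the order thus ran Pou5f1, Dppa4, Prdm1, Tfap2c, Utf1 and Esrrb, with Nanog, Dppa3 and Prdm14 last. The WT libraries of Pou5f1 (6.37 and 4.84) and Dppa4 (5.51 and 4.04) overlapped on this scale, as did those of Tfap2c (0.504 and 0.340) and Utf1 (0.381 and 0.413). The WT libraries of Esrrb (0.229 and 0.197) overlapped those of Nanog (0.211 and 0.0764), and those of Dppa3 overlapped those of Prdm14. The order within each of these pairs is within their spread.

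**Figure D1:**
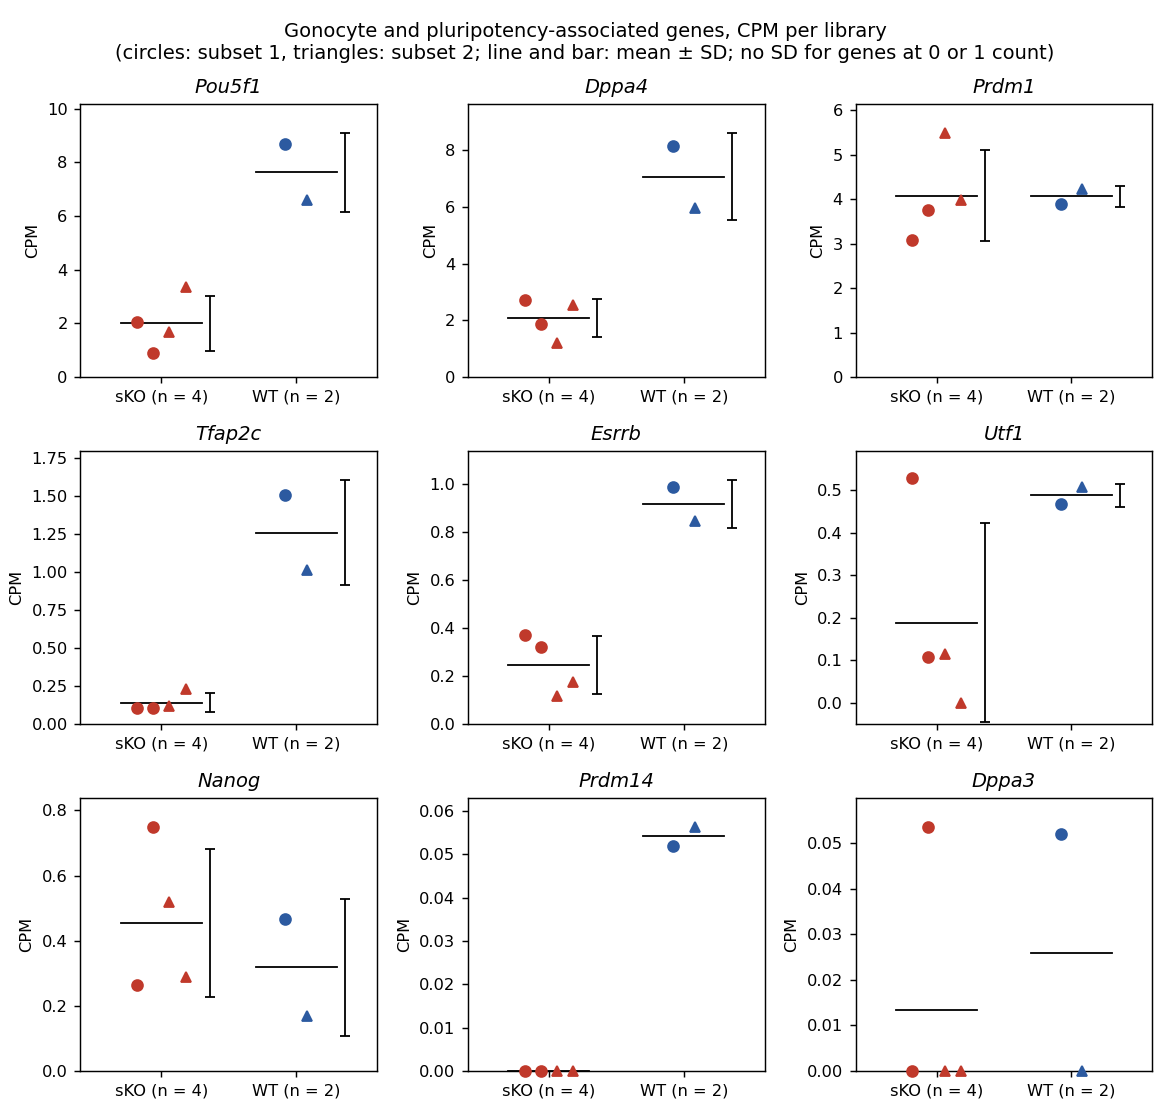
CPM of each of the 9 genes in each library, sKO (red, n = 4) left of WT (blue, n = 2); circles are subset 1 and triangles subset 2, the line is the mean and the bar its SD. The sKO points lie below both WT points for Pou5f1, Dppa4, Tfap2c and Esrrb, and the groups overlap for Prdm1, Utf1 and Nanog; Prdm14 and Dppa3 rest on 0 or 1 count per library.

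Pou5f1 (ENSMUSG00000024406) encodes OCT4, the POU-domain factor at the centre of the pluripotency network, which germ cells keep through fetal life. Its promoter is shown because this gene had the highest level per length of the 9 genes in WT. Promoter windows, from 250 bases before the transcription start to 50 after it, came from RefSeq (GRCm38.p6) and were found for 5 of the 9 genes: Pou5f1, Nanog, Esrrb, Utf1 and Prdm1. The Pou5f1 window is chr17:35505782-35506081 on the plus strand. Capitals mark matches to a GC box (GGGCGG) at position −45 from the start site and to a nuclear receptor core (AGGTCA) at position −33.
Pou5f1: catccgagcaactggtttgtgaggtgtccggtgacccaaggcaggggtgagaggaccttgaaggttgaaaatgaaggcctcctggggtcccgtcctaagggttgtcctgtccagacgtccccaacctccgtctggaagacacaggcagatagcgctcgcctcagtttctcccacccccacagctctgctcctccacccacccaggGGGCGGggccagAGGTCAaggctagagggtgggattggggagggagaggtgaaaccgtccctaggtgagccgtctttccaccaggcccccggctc
On either strand, GGGCGG occurs in 35.7% and AGGTCA in 16.3% of the 32851 promoter windows of this length in the RefSeq table. A match is a description of the letters and not of a bound site.

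Pou5f1 had 39, 17, 29 and 58 counts in sKO-1 to sKO-4, against 167 and 117 counts in WT-1 and WT-2. These are 2.06, 0.910, 1.68 and 3.35 CPM in sKO and 8.67 and 6.59 CPM in WT, with means of 2.0 ± 1.02 CPM in sKO and 7.63 ± 1.47 CPM in WT (SD, n = 4 and 2). All 4 sKO values lay below both WT values, with sKO-2 the lowest and sKO-4 the highest in sKO. The log2 fold change was −1.93 (SE 0.43), and it did not pass the threshold of 0.05 (edgeR adjusted p = 0.0720). Within subset 1 it was −2.56 (SE 0.40, edgeR adjusted p = 0.00484) and within subset 2 it was −1.40 (SE 0.39, edgeR adjusted p = 0.0988). With subset as a term in the fit it was −1.97 (SE 0.37, edgeR adjusted p = 0.0102). Among the fits that left out 1 sKO library, only the one lacking sKO-4 passed (−2.31, edgeR adjusted p = 0.0443). The log2 fold change was −1.95 with sKO-1 out (edgeR adjusted p = 0.158) and −1.69 with sKO-2 out (edgeR adjusted p = 0.0972). With sKO-3 out it was −1.86 (edgeR adjusted p = 0.175). Dropping WT-1 gave −1.72 and dropping WT-2 gave −2.14, each with a single WT library left. DESeq2 gave an adjusted p of 0.00155 and limma-voom gave 0.0380. The antisense gene Gm19553 overlaps Pou5f1 exons by 317 bases and had 0 counts in every library.

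Dppa4 (ENSMUSG00000058550) encodes a SAP-domain nuclear protein of pluripotent cells and early germ cells that works together with Dppa2. It had 51, 35, 21 and 44 counts in sKO-1 to sKO-4, against 157 and 106 counts in WT-1 and WT-2. These are 2.70, 1.87, 1.21 and 2.54 CPM in sKO and 8.15 and 5.97 CPM in WT. Every sKO library lay below both WT libraries. Dppa4 fell in sKO by the test over all 17707 genes, to a mean of 2.08 ± 0.681 CPM in sKO, against 7.06 ± 1.54 CPM in WT (SD, n = 4 and 2; log2 fold change −1.76, SE 0.34, edgeR adjusted p = 0.0422).

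The Dppa4 call was close to the threshold. It was lost when any 1 of the 6 libraries was left out, with an edgeR adjusted p of 0.378 once WT-1 was out, 0.0917 once WT-2 was out, and 0.0690 (sKO-1 out), 0.117 (sKO-2 out), 0.0718 (sKO-3 out) and 0.0762 (sKO-4 out) once an sKO library was out. The fold change itself was −1.85 within subset 1 (edgeR adjusted p = 0.00759) and −1.67 within subset 2 (edgeR adjusted p = 0.0725). With subset as a term it was −1.75 (edgeR adjusted p = 0.00445). The annotation holds 2 processed pseudogenes close to Dppa4 in sequence, and both had 0 counts in every library.

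Tfap2c (ENSMUSG00000028640) encodes AP-2 gamma, which acts with PRDM1 in specifying primordial germ cells. It had 2, 2, 2 and 4 counts in sKO-1 to sKO-4, against 29 and 18 counts in WT-1 and WT-2. These are 0.106, 0.107, 0.116 and 0.231 CPM in sKO and 1.51 and 1.01 CPM in WT. Of the 4 sKO libraries, 3 were under the floor of 3 counts, and all 4 lay far below both WT libraries. Tfap2c fell in sKO (log2 fold change −3.12, SE 0.49, edgeR adjusted p = 0.0245), with means of 0.140 ± 0.0610 CPM in sKO and 1.26 ± 0.348 CPM in WT (SD, n = 4 and 2).

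Tfap2c passed the filter on low counts through its WT libraries alone, so a difference was built into its being tested. Over pooled libraries, 10 counts in sKO against 47 in WT gave a CPM ratio of 0.109 (95% interval 0.0491 to 0.219, counting error only). The call held without sKO-4 (edgeR adjusted p = 0.0368). It was lost without sKO-1 (0.0664), sKO-2 (0.0771), sKO-3 (0.0721), WT-1 (0.304) or WT-2 (0.0685), all edgeR adjusted p. Within subset 1 the log2 fold change was −3.76 (edgeR adjusted p = 0.0219) and within subset 2 it was −2.51 (edgeR adjusted p = 0.140).

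Prdm1 (ENSMUSG00000038151) encodes BLIMP1, the zinc-finger repressor that starts primordial germ cell fate and that lymphocytes and some other cells use as well. Its promoter is shown as that of the 1 gene expressed in WT whose groups overlapped. The window is chr10:44458699-44458998 on the minus strand. It is in lower case throughout, because none of the motifs searched on both strands (the GC box, the nuclear receptor core, and the octamer and SOX cores spelled out with Nanog) occurs in it, which says only that these letters are not in this window.
Prdm1: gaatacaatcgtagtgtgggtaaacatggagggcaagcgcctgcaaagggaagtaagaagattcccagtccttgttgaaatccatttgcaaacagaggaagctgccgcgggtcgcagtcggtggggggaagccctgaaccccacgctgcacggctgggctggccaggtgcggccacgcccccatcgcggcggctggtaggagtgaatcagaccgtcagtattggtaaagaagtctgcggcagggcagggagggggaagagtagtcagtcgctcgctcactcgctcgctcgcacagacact

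Prdm1 had 58, 70, 95 and 69 counts in sKO-1 to sKO-4, against 75 and 75 counts in WT-1 and WT-2. These are 3.07, 3.75, 5.49 and 3.99 CPM in sKO and 3.89 and 4.23 CPM in WT. The WT values lay inside the sKO range, with sKO-1 the lowest and sKO-3 the highest library. Means were 4.07 ± 1.02 CPM in sKO and 4.06 ± 0.234 CPM in WT (SD, n = 4 and 2; log2 fold change 0.0038, SE 0.28, edgeR adjusted p = 1.0). The log2 fold change was −0.21 within subset 1 and 0.16 within subset 2, and its sign turned with the setting.

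Prdm14 (ENSMUSG00000042414), a PR-domain regulator of primordial germ cells and of naive pluripotency, had 0 counts in all 4 sKO libraries and 1 count in each WT library. Both groups were under the floor, so no fold is given.

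Esrrb (ENSMUSG00000021255) encodes an orphan nuclear receptor of the naive pluripotency network. It had 7, 6, 2 and 3 counts in sKO-1 to sKO-4, against 19 and 15 counts in WT-1 and WT-2. These are 0.370, 0.321, 0.116 and 0.173 CPM in sKO and 0.986 and 0.845 CPM in WT. The sKO values all lay below both WT values, and Esrrb, too, passed the filter through its WT libraries alone. The log2 fold change of −1.86 (SE 0.52) did not pass the test (edgeR adjusted p = 0.146), but it did with subset as a term (log2 fold change −1.91, edgeR adjusted p = 0.0311).

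Utf1 (ENSMUSG00000047751), a chromatin-associated protein of embryonic stem cells that spermatogonia also express, had 10, 2, 2 and 0 counts in sKO-1 to sKO-4, against 9 and 9 counts in WT-1 and WT-2. Library sKO-1, at 0.529 CPM, lay above both WT libraries, at 0.467 and 0.507 CPM, while the other 3 sKO libraries lay below them. Utf1 did not pass the filter on low counts. Without a filter its log2 fold change was −1.31 (SE 0.88, edgeR adjusted p = 0.771).

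Nanog (ENSMUSG00000012396) encodes a homeodomain factor of naive pluripotency that primordial germ cells express and that is lowered in the fetal testis. Its promoter is shown because it holds the OCT4 and SOX motifs next to each other. The window is chr6:122707315-122707614 on the plus strand. Capitals mark TTTGCAT, the reverse complement of the octamer core ATGCAAA, at position −151, and ACAATG, the reverse complement of the SOX core CATTGT, at position −143.
Nanog: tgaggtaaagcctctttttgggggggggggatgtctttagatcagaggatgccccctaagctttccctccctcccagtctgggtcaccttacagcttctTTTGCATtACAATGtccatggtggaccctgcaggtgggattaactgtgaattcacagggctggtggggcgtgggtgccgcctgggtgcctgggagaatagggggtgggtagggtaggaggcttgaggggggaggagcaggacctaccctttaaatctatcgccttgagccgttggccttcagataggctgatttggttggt
On either strand the octamer core occurs in 4.63% of the 32851 windows and the SOX core in 12.6%.

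Nanog had 5.04, 14.2, 9.32 and 5.15 expected counts in sKO-1 to sKO-4, against 9.17 and 2.61 in WT-1 and WT-2. The groups overlapped, with means of 0.456 ± 0.227 CPM in sKO and 0.318 ± 0.211 CPM in WT (SD, n = 4 and 2). Nanog did not pass the filter, and without one its log2 fold change was 0.51 (SE 0.70, edgeR adjusted p = 0.805). Its counts are not whole, and RSEM, named in the submitters' processing notes, divides reads that match several genes. Nanog's longest transcript of 2211 bases shares a stretch around bases 1204 to 1389 with transcripts of 459 other genes (90% identity or more over at least 100 bases). How many of its counts come from that stretch was not tested, so the Nanog values are uncertain. The pseudogenes Nanog-ps1 and Nanog-ps2 had 0 counts in every library.

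Dppa3 (ENSMUSG00000046323) encodes STELLA, a protein of primordial germ cells and oocytes that protects DNA methylation in the zygote. It had 1 count in sKO-2 and 0 in the other 3 sKO libraries, against 1 count in WT-1 and 0 in WT-2. No difference was detectable at this depth, and the pseudogene Dppa3-ps had 0 counts in every library.

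Of the 9 genes, 5 passed the filter on low counts and were tested, and 2 of them (Dppa4 and Tfap2c) fell, where 2.30% of all 17707 genes tested fell. None rose, where 0.124% of all genes tested rose and 2.43% were called in either direction. For 4 of the 5 (Pou5f1, Dppa4, Tfap2c and Esrrb) every sKO library lay below both WT libraries, as for 13.3% of all genes tested, and for none did every sKO library lie above both WT libraries, as for 9.79% of all genes tested. Since Tfap2c and Esrrb entered the test through WT, these counts describe the genes and are not read as more. With subset as a term the same 4 genes fell and none rose, where 8.65% of all genes tested fell and 4.97% rose. Without a filter on low counts 3 of the 9 fell (Pou5f1, Dppa4 and Tfap2c), where 1.66% of all genes tested fell. In the fit without WT-1, which leaves 1 WT library, calls were lost over nearly the whole table, those of Dppa4 and Tfap2c included. The log2 fold changes there were −1.72 for Pou5f1, −1.52 for Dppa4, −2.81 for Tfap2c, −1.74 for Esrrb and −0.054 for Prdm1.

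**Figure D2:**
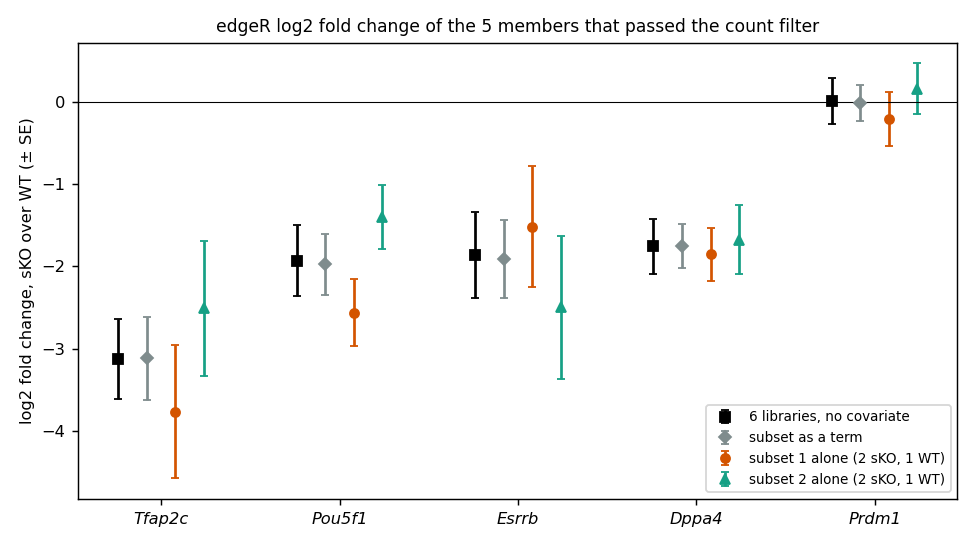
Log2 fold change, sKO over WT, of the 5 tested genes, from all 6 libraries, with subset as a term and within each subset; bars are the SE, and each subset alone holds 2 sKO and 1 WT libraries. Pou5f1, Dppa4, Tfap2c and Esrrb are below 0 in each of these fits, and Prdm1 is near 0.

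To set the 4 genes expressed in WT beside the germ cell transcripts of the same library, each was expressed as counts per 1000 counts summed over the 14 pan-germ-cell genes. Pou5f1 then stood at 11.3, 7.26, 14.6 and 17.3 in sKO-1 to sKO-4, against 9.38 and 10.3 in WT-1 and WT-2. The sKO values spanned the WT values (means 12.6 ± 4.31 in sKO and 9.85 ± 0.662 in WT; log2 difference 0.28, exact permutation p = 0.533). Dppa4 stood at 14.7, 14.9, 10.5 and 13.1 in sKO, against 8.82 and 9.35 in WT, so that every sKO library was above both WT libraries (log2 difference 0.54, exact permutation p = 0.0667). With this denominator the sKO mean lay above the WT mean for both genes. All 14 genes of the denominator fell in sKO (median log2 fold change −2.32), and they were listed with earlier results of these data known. A gene with a smaller fall stands higher on this scale by construction, as do Pou5f1 (log2 fold change −1.93) and Dppa4 (−1.76).

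For Tfap2c the difference on this scale had the other sign, but it rests on 2, 2, 2 and 4 counts in sKO-1 to sKO-4. Tfap2c was also chosen for this scale by its WT level, so a lower sKO value was in part built in. It stood at 0.577, 0.854, 1.0 and 1.19 per 1000 in sKO, against 1.63 and 1.59 in WT, and every sKO library lay below both WT libraries (log2 difference −0.88, exact permutation p = 0.133). Prdm1 stood at 16.7, 29.9, 47.7 and 20.5 in sKO, against 4.21 and 6.61 in WT, with every sKO library above both WT libraries (log2 difference 2.33, exact permutation p = 0.0667). The CPM of Prdm1 itself had a log2 fold change of 0.0038 (SE 0.28), so its ratio restates the lower denominator, whose sum averaged 155 CPM in sKO and 782 CPM in WT. The smallest two-sided p that 4 against 2 libraries allow is 0.0667, so none of these tests could pass 0.05. Adjusted over the 4 genes, the exact permutation p was 0.533 for Pou5f1, 0.133 for Dppa4, 0.178 for Tfap2c and 0.133 for Prdm1.

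These ratios depend on the denominator. Per count of 12 genes of undifferentiated spermatogonia in place of the pan-germ-cell genes, the log2 difference turned to −1.27 for Pou5f1 and −1.02 for Dppa4, and it was −2.43 for Tfap2c and 0.77 for Prdm1. That list summed to 160 to 200 CPM in sKO, against 282 and 354 CPM in WT, a smaller difference than that of the pan-germ-cell genes. Etv5 and Foxo1, which did not pass the test, made up 130 of its 183 CPM in sKO and 151 of its 318 CPM in WT. Without these genes, an alternative chosen after the data were seen, the log2 difference was −0.40 for Pou5f1 and −0.14 for Dppa4 (exact permutation p = 0.6 and 0.2), and it was −1.56 for Tfap2c and 1.65 for Prdm1. Within subset 1 the pan-germ-cell ratio of Pou5f1 was −0.05, and within subset 2 it was 0.62.

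**Figure D3:**
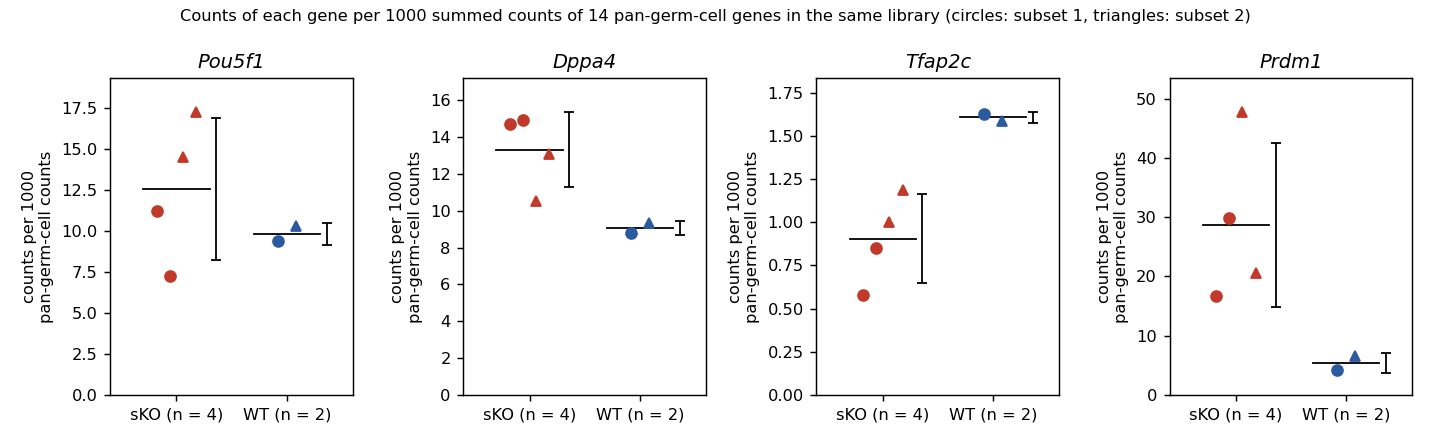
Counts of the 4 genes expressed in WT per 1000 summed counts of 14 pan-germ-cell genes, per library, sKO left of WT; circles are subset 1 and triangles subset 2, the line is the mean and the bar its SD. Dppa4 and Prdm1 lie higher in every sKO library than in WT, and Pou5f1 overlaps. The denominator itself was lower in sKO, at a mean of 155 CPM, against 782 CPM in WT. Tfap2c lies lower, on 2 to 4 counts per sKO library, and was chosen by its WT level.

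Other genes of the pluripotency network split. Of 22 listed, 16 were tested, 3 fell and 0 rose, with a median log2 fold change of −0.18, against 0.03 over all genes tested. The 3 were Lin28a and Trim71, RNA regulators of the let-7 pathway, and Sall4, a zinc-finger factor that germ cells share with the early embryo. Lin28a averaged 6.34 ± 1.84 CPM in sKO and 31.8 ± 6.76 CPM in WT (SD, n = 4 and 2; log2 fold change −2.32, SE 0.26, edgeR adjusted p = 0.0110). Trim71 averaged 18.3 ± 5.33 CPM in sKO and 81.0 ± 22.4 CPM in WT (log2 fold change −2.14, SE 0.26, edgeR adjusted p = 0.0136). Sall4 averaged 8.86 ± 3.08 CPM in sKO and 36.9 ± 8.99 CPM in WT (log2 fold change −2.06, SE 0.32, edgeR adjusted p = 0.0235). With subset as a term 6 of the 16 fell, where 8.65% of all genes tested fell. Without WT-1 all 3 calls were lost, as were those of nearly the whole table. The log2 fold changes were then −2.09 for Lin28a, −1.83 for Trim71 and −1.78 for Sall4. The call of Sall4 was also lost without sKO-2 (edgeR adjusted p = 0.0692).

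Sox2, Tdgf1, Gdf3, Fgf4, Dppa2 and L1td1 had too few counts to be tested. Dppa2, the partner of Dppa4, averaged 0.0945 CPM in sKO and 0.412 CPM in WT. Dppa5a averaged 0.587 ± 0.316 CPM in sKO and 2.12 ± 0.581 CPM in WT (log2 fold change −1.83, edgeR adjusted p = 0.114), and it passed the filter through its WT libraries alone. Mycn, Nr0b1 and Klf4, which other cells use as well, differed little between the groups and did not pass the test. Mycn averaged 105 CPM in sKO and 108 CPM in WT, Nr0b1 34.2 CPM in sKO and 28.6 CPM in WT, and Klf4 28.8 CPM in sKO and 30.2 CPM in WT. Dppa2, Dppa5a, Mycn, Nr0b1 and Klf4 were chosen for mention after their values were seen.

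Of 16 other genes of primordial germ cells and gonocytes, 15 were tested, 4 fell and 0 rose, with a median log2 fold change of −0.74. Tex101, a surface protein of prospermatogonia and later germ cells, averaged 2.14 ± 0.462 CPM in sKO and 11 ± 2.04 CPM in WT (log2 fold change −2.35, SE 0.25, edgeR adjusted p = 0.0110). Dnd1, an RNA-binding protein needed for germ cell survival, averaged 3.56 ± 0.614 CPM in sKO and 11.6 ± 1.28 CPM in WT (log2 fold change −1.70, edgeR adjusted p = 0.0139). Piwil4, the nuclear PIWI protein of prospermatogonia, averaged 1.16 ± 0.262 CPM in sKO and 4.62 ± 0.154 CPM in WT (log2 fold change −1.99, edgeR adjusted p = 0.0193). Elavl2, an RNA-binding protein, averaged 6.12 ± 1.08 CPM in sKO and 15.4 ± 4.50 CPM in WT (log2 fold change −1.33, edgeR adjusted p = 0.0351). With subset as a term 8 of the 15 fell, where 8.65% of all genes tested fell. Without WT-1 the calls of this list were lost, as were those of nearly the whole table. The log2 fold changes were then −2.15 for Tex101, −1.59 for Dnd1, −1.96 for Piwil4 and −0.996 for Elavl2. Piwil4 was called without sKO-4 but not without sKO-1 (0.0528), sKO-2 (0.0618), sKO-3 (0.0526) or WT-2 (0.0676). Elavl2 was called without WT-2 but not without any 1 of the sKO libraries (edgeR adjusted p 0.0655 to 0.0968).

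All 14 pan-germ-cell genes fell, with a median log2 fold change of −2.32, and Stk31, Rbm44, Dazl and Fkbp6 had the smallest edgeR adjusted p, at 0.00929 each. Of 12 genes of undifferentiated spermatogonia, 10 were tested and 5 fell, with a median of −1.11. Sox3 (log2 fold change −3.95), Rhox10 (−3.25), Zbtb16 (−2.25) and Ret (−1.69) were among the 5. Rhox10 passed the filter on low counts through its WT libraries alone, as Tfap2c did. The call of Ret was lost without sKO-2, sKO-3, sKO-4 or either WT library (edgeR adjusted p 0.0723 to 0.342). Of 18 paralogs of the 9 genes, 11 were tested and 0 passed (median −0.16). The most abundant were Prdm2, at 117 CPM in sKO and 131 CPM in WT, and Pou2f1, at 73.0 CPM in sKO and 86.1 CPM in WT. The paralogs gave 2 calls with DESeq2, 1 with limma-voom and 4 with subset as a term, all lower in sKO. Over all genes tested, 646 of 32531, 446 of 17707 and 1531 of 17707 fell in these fits. Without WT-1 the calls of these 3 lists were lost, as were those of nearly the whole table. The median log2 fold change was then −2.05 for the pan-germ-cell genes, −0.97 for the undifferentiated spermatogonia genes and −0.13 for the paralogs. Of the pan-germ-cell genes, 12 to 14 were called without any 1 sKO library.

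**Figure D4:**
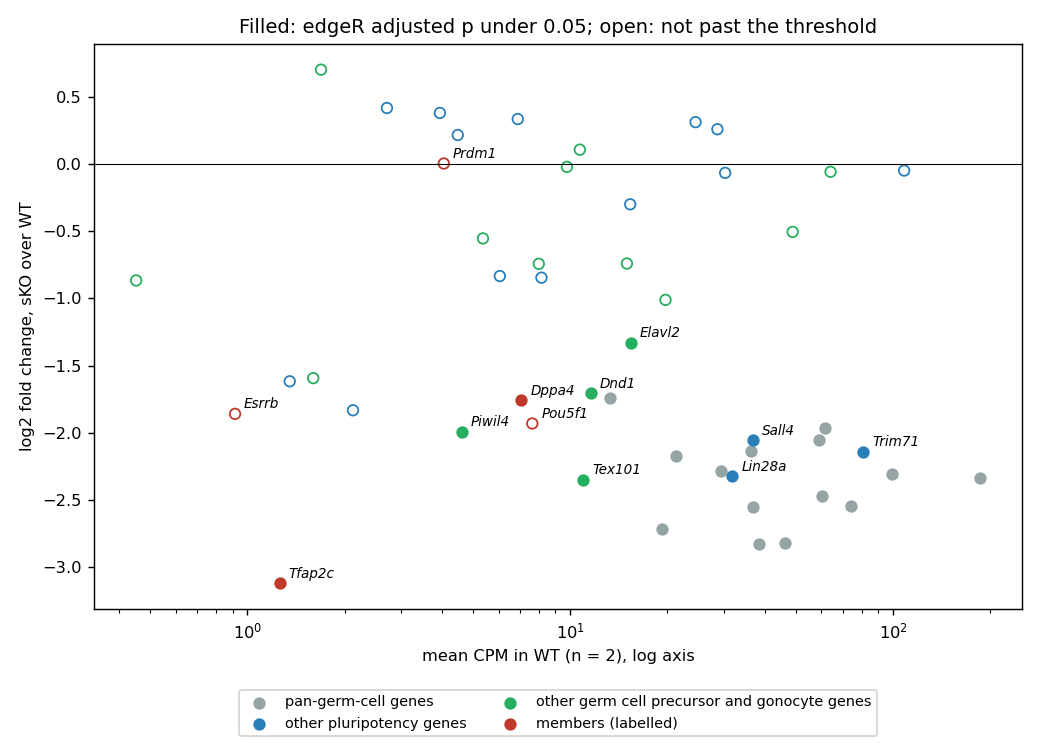
Log2 fold change, sKO over WT, of each tested gene against its mean CPM in WT (log axis), coloured by list, with filled points past the edgeR threshold. Dppa4, Tfap2c, Lin28a, Trim71, Sall4, Tex101, Dnd1, Piwil4 and Elavl2 are filled and named, Pou5f1 and Esrrb are open at similar fold changes, and Prdm1 is at 0.

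Among markers of the somatic cells of the testis, 1 gene passed the test. Of 12 Sertoli cell genes, 1 rose: Amh, the anti-Müllerian hormone, averaged 471 ± 22.9 CPM in sKO and 345 ± 1.0 CPM in WT (log2 fold change 0.45, edgeR adjusted p = 0.0429). No Sertoli gene was called when any 1 sKO library was left out, and 4 rose with subset as a term, where 4.97% of all genes tested rose. The Sertoli list summed to 7452 to 8692 CPM in sKO, against 6366 and 7839 CPM in WT. The summed ranges of the Leydig cell list were 811 to 1233 CPM in sKO, against 736 and 928 CPM in WT, led by Hsd3b1 and Hsd17b3. The stromal and myoid list summed to 6277 to 8340 CPM in sKO, against 5671 and 7380 CPM in WT, led by Col3a1 and Col1a2.

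The endothelial list summed to 302 to 370 CPM in sKO, against 274 and 306 CPM in WT, with Cdh5 and Eng the most abundant. The macrophage list summed to 76.8 to 97.9 CPM in sKO, against 81.7 and 91.0 CPM in WT, with Lyz2 and Mrc1 the most abundant. The red blood cell list summed to 486 to 708 CPM in sKO, against 401 and 401 CPM in WT, led by Hbb-bs and Hba-a1. No gene of the Leydig, stromal, endothelial, macrophage and red blood cell lists passed the test over all 6 libraries. With subset as a term, 1 stromal gene fell and 2 rose, 1 endothelial gene rose and 2 red blood cell genes rose. In that fit 8.65% of all genes tested fell and 4.97% rose. The part of these cells in the levels of the 9 genes, Prdm1 included, was not tested.

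Across the 6 libraries, log2 CPM of Pou5f1 and Tfap2c had a Pearson r of 0.933, Dppa4 and Tfap2c of 0.932, Dppa4 and Esrrb of 0.936, and Pou5f1 and Dppa4 of 0.895. Prdm1 ran apart, with r between −0.361 and 0.0458 with the other 4 tested genes. The 6 points share the genotype difference and the library subsets, so r is a description only. Likeness by this measure was ranked only among other tested genes with a symbol and a mean of at least 1 CPM. Of these, the 3 genes most like Dppa4 were Sall4 (0.999), Xlr5b (0.999) and the splicing regulator Esrp1 (0.998). Those most like Pou5f1 were the BH3-only gene Bik (0.995), Rragd (0.991) and Ccdc158 (0.991).

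Nearest to Tfap2c were the glutathione reductase gene Gsr (1.0), Sgms2 (0.999) and Abcc4 (0.999). Nearest to Esrrb were Bicdl1 (0.993), Dnajc2 (0.993) and Cnot3 (0.992), and nearest to Prdm1 were Gpr160 (0.980), Armh4 (0.974) and Celsr1 (0.972). A high r did not mean an equal difference between groups. Gsr averaged 81.9 CPM in sKO and 125 CPM in WT (log2 fold change −0.62, edgeR adjusted p = 0.0199), a smaller fold change than the −3.12 of Tfap2c.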

How the data were processed

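Gene-level expected counts from poly(A) RNA of 6 testis libraries were deposited by the authors as 1 table. Per the submitters' processing notes, fastp, STAR, RSEM and the build mm39 were used. For the versions, the annotation and the strand setting: not given in the sources used here. Symbols came from GENCODE M21 (GRCm38), which matched 51742 of 57170 identifiers (90.5%). Libraries were grouped by genotype label, 4 sKO and 2 WT, although the series' design text states 3 per group. The 9 genes and all lists were chosen with earlier results of these data known.

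Expected counts were rounded. Genes were kept by edgeR's filterByExpr (minimum count 10), leaving 17707. Library sizes were TMM-scaled. The test was edgeR's two-sided quasi-likelihood test (edgeR 4.0.16, R 4.3.3) on all 6 libraries without covariates. The p-values were adjusted by Benjamini-Hochberg over the 17707 genes, with 0.05 as threshold. It was tested on simulated counts. Log2 CPM used a prior count of 2. Alternatives were DESeq2 1.42.0, limma-voom (limma 3.58.1), other scalings and filters, left-out libraries, a replicate block, and library subsets by the sign of the first principal component. Beyond the 9 genes, each list is named by up to 4 genes of smallest adjusted p or, with none past the threshold, the 2 most abundant. The 3 genes of highest correlation are named per tested gene of the 9. They were ranked among tested genes with a symbol and a mean of at least 1 CPM. The 9 genes themselves and genes named Gm with a number, Rik or -ps were passed over. Similar transcripts were found with BLAST 2.17.0.

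No libraries of a group were alike within sampling noise: the chi-square per gene was 3.92 to 23.7 among sKO libraries and 21.5 between the WT libraries. Each library was counted as 1 replicate. Spread above sampling noise may be technical, so this check cannot show that the libraries came from separate animals. The closest pairs were sKO-3 with sKO-4 (3.92) and sKO-1 with sKO-2 (6.65). At 17.99 to 18.39 M counts a library, genes of a few counts are limited by depth. The germ cell gene Gcna was not analysed here.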

Additional observations from a re-analysis of the deposited data

Results flagged for a closer look

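In 5 of 61 genes examined, 1 of the 4 sKO libraries stood apart from the other 3 by a test that chance meets in about 1 in 20 groups of 4, so about 3 would be met by chance. Dppa3 had 0.0536 CPM in sKO-2, a single count, and 0 in the others. Any lone count beside 3 zeros meets this test, so the value for Dppa3 says nothing of the library. Tfap2c had 0.231 CPM in sKO-4, which is 4 counts against 2 in each other sKO library. Among the other pluripotency genes, Dppa5a had 1.06 CPM in sKO-1 and Tet1 had 27.6 CPM in sKO-3. The spermatogonial gene Nanos2 had 0.741 CPM in sKO-1.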

How the results depend on the processing

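Where a result moved, the cause was not tested unless stated. Against 430 genes called, DESeq2 called 726, the fit with library subset as a term 2411, subset 1 alone 1228, subset 2 alone 834, and leaving out 1 library 3 to 232, with the lowest count without WT-1. Without a WT library, the spread of the lone WT library is taken to equal that of sKO. Of the 9 genes, 2 were called, where 408 of all 17707 genes tested fell. With upper-quartile factors 1 was called (356 of 17707 fell), as with unscaled library totals (384 of 17707). A minimum of 1 CPM in 4 libraries also gave 1 (324 of 15073, Tfap2c not tested). The subset term gave 4 (1531 of 17707), and leaving out 1 sKO library gave 0 to 2 (103 to 225 genes fell). DESeq2 called 3 (646 of 32531), as did limma-voom (446 of 17707) and no filter (541 of 32550). Each subset alone leaves 1 WT library. The log2 fold changes of Pou5f1, Dppa4, Tfap2c and Esrrb were −2.56, −1.85, −3.76 and −1.52 in subset 1. In subset 2 they were −1.40, −1.67, −2.51 and −2.50. Against 4 of the 9 genes expressed in WT at 1 CPM, 7 were at 0.1 CPM, 5 at 0.5 CPM, 3 at 2 CPM and 3 at 1 CPM over unscaled library totals.

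Pou5f1 and Dppa4 had negative log2 fold changes in all 20 settings tried, from −2.56 to −1.40 and from −2.0 to −1.52, with 7 and 9 called. Tfap2c was negative in 19 of 19 settings (−3.76 to −2.51, 11 called) and Esrrb in 19 of 19 (−2.50 to −1.40, 1 called). For Pou5f1, Dppa4, Tfap2c and Esrrb every sKO value lay below both WT values, and all settings reuse the same libraries. Their sign could thus hardly turn, and the tally is not independent evidence. Tfap2c and Esrrb also entered the test through WT alone. Prdm1 turned negative in 10 of 20 settings, none called: −0.030 with limma-voom, −0.036 with library totals, −0.20 with library sizes set to the Sertoli list, −0.0080 with 1 CPM in 4 libraries, −0.013 with the subset term, −0.21 in subset 1 alone, −0.27 and −0.26 in the 4 libraries numbered 1 and 2 with and without a replicate block, and −0.17 to 0.12 when 1 library was left out. The Sertoli scaling moved the median of all genes to −0.16. Per undifferentiated-spermatogonia count, the ratio turned to −1.27 for Pou5f1 and −1.02 for Dppa4. Without Etv5 and Foxo1, which make up most of that sum in sKO, it was −0.40 and −0.14 (chosen after seeing the data). Within subset 1 the pan-germ-cell ratio of Pou5f1 was −0.053.

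Whether the replicate numbers pair the libraries could not be decided from the counts. The deviations of 2 WT libraries from their mean mirror each other, so a correlation with WT-2 is the negative of that with WT-1. The signs therefore only restate the subsets: 0.42 for sKO-1 with WT-1, and for sKO-2 0.44 with WT-1 and −0.44 with WT-2. In the 4 libraries numbered 1 and 2 the replicate block gave 287 calls and 1 of the 9 genes (Pou5f1, edgeR adjusted p = 0.0214). The same libraries without the block gave 196 calls and 0 of the 9. Depth limits Prdm14, Dppa3, Nanog and Utf1, none of which passed the filter.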
